A study of Homo sapiens with 4 samples.

Results

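This account follows 10 regulators of blood stem and progenitor cells, GATA2, ERG, LMO2, LYL1, TAL1, RUNX1, MYB, SOX4, MSI2 and BMI1, in leukaemia cells in which hairpins against ZFX were expressed. The members were selected by name, and each gene was represented by the brightest probe set that carries its symbol and no other. Of the 10 genes, 9 were found this way, among 18417 genes on the array, and each of the 9 had 1 probe set. The probe set listing BMI1 also lists the read-through gene COMMD3-BMI1, so BMI1 was not analysed here.

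NOMO-1 is a monocytic cell line from a human acute myeloid leukaemia and carries a fusion of KMT2A with MLLT3. The knock-down group (genotype ZFX knock-down in the labels) held 2 arrays, 1 from cells with the lentiviral hairpin SH1 and 1 from cells with SH3. The control group (genotype ZFX wild type) also held 2 arrays, 1 from cells with a scrambled hairpin (SCR) and 1 from cells with a GFP lentivirus (LEN-GFP). All cells were infected at a multiplicity of infection of 1, selected for the virus, and taken 48 h after selection. Each construct was measured on 1 array, and no label says that the cultures were independent. P-values for both hairpins against both controls therefore hold the variation of constructs and of arrays without telling them apart. Where a hairpin array stands alone, the control pair gives the spread and the hairpin array adds none.

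ZFX is an X-linked zinc finger transcription factor needed for the self-renewal of blood stem cells in mice. GATA2, TAL1, LYL1, LMO2, RUNX1 and ERG belong, with FLI1, to a group of factors that bind together at enhancers of blood stem and progenitor cells. TAL1 and LYL1 are related basic helix-loop-helix proteins, LMO2 bridges them to GATA2, ERG is an ETS factor and RUNX1 a Runt domain factor. MYB drives proliferation and blocks maturation of myeloid progenitors and is a dependency of KMT2A-rearranged leukaemia. SOX4 is an HMG box factor, and MSI2 is not a transcription factor but an RNA-binding protein that sustains stem cell and leukaemia growth.

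Values are log2 of the deposited intensity, and a dim gene cannot be told from an unexpressed one. ZFX itself was at 10.13 on SH1 and 10.12 on SH3, against 10.65 on LEN-GFP and 10.66 on SCR, which is 69.3% of its control level. Its difference was -0.53 (SE 0.10, limma's adjusted p 0.797), so ZFX was not called over both hairpins. The SH3 array stood apart from the other 3. Across the 12892 genes tested, its Pearson r with the others was 0.972 to 0.976, against 0.990 to 0.994 between the others. Of the monocytic markers, LYZ (14.20 to 14.37) and CD68 (13.31 to 13.46) were bright over the 4 arrays. CD14 was dimmer at 7.27 to 7.62. Of 15 monocytic markers found, 2 were under the limit for dim genes, CD163 (5.82 to 6.14) and MRC1 (5.39 to 5.50). Of 11 granulocytic markers, 2 were under it as well, while MPO was bright (12.31 to 13.36). Over 13 monocytic markers tested the median difference was 0.08, with FCN1 at 0.50, ITGAX at 0.47, CSF1R at 0.58 and VCAN at -0.14, and none was called over both hairpins. The stem cell antigen CD34 was under the limit for dim genes (log2 6.70), at 5.80 to 6.0. The T cell genes CD3D, CD3E and CD3G were under that limit on each array. Of 10 lymphoid markers found, 5 were under it and 5 above, among the latter CD7 (9.40 to 9.62) and LCK (6.72 to 6.93). Markers that monocytes share, such as PECAM1 of endothelium, were bright (12.72 to 12.93). The median difference between the groups was 0.04 for 5 lymphoid, 0.08 for 4 erythroid, 0.03 for 3 megakaryocyte and 0.04 for 5 endothelial markers tested.

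Promoters of the members were read for the letters AGGCCT, the centre of the binding motif known for ZFX, which is its own reverse complement. RefSeq promoters (GRCh38.p14, 250 bases before to 50 bases after a gene's start) were given for 8 of the 9 members, with 14 promoters in all, and not for LMO2. The letters were present in 3 of these 14 promoters, 1 each of TAL1, RUNX1 and SOX4, against 10.9% of all 35116 promoters. The stretches that hold them are shown because they are where a ZFX-like motif lies in these genes, with the motif in capitals. The TAL1 promoter has 2 copies, and the one farther from the start is shown.
TAL1, chr1:47232526-47232585, minus strand: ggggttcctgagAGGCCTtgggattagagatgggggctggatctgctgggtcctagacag
RUNX1, chr21:34888765-34888824, minus strand: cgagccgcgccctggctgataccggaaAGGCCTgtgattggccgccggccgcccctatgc
SOX4, chr6:21593771-21593800, plus strand: aaactgtgtgtgaggggaagAGGCCTgttt
The motif begins 238 bases before the start in TAL1, 98 bases before it in RUNX1, and at position 41 after it in SOX4. TAL1, RUNX1 and SOX4 differed between the groups by 0.06, 0.11 and -0.05 on the log2 scale, and none of them passed the test.

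The shorter letters GGCCT, or AGGCC on the other strand, which each full motif also holds, were in 9 of the 14 promoters and in 56.2% of all promoters. Of the 8 members with a promoter, MSI2 alone had no copy in any of its promoters. The 250 bases before the more upstream of its 2 listed starts are shown because MSI2 had the largest difference of the members, and those of MYB because MYB differed between the hairpins, with the shorter letters in capitals.
MSI2, chr17:57255601-57255850, plus strand: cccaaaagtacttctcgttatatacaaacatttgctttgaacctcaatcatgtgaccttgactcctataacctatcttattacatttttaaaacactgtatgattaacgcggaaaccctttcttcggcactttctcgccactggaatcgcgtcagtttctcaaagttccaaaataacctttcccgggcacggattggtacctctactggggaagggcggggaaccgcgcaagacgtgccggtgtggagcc
MYB, chr6:135181058-135181307, plus strand: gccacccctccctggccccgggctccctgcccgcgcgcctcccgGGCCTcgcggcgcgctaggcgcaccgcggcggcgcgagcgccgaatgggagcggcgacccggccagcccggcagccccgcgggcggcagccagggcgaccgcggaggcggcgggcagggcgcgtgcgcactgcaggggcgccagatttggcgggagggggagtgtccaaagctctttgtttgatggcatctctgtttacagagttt
A match or its absence describes these letters only, and binding was not measured.

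The question for the members was whether their mRNA differs when ZFX is reduced. None of them passed the test in the comparison of both hairpins with both controls. ZFX, the target of the hairpins, did not pass it either (limma's adjusted p 0.797). A missing call therefore does not show that the mRNA of a member was unchanged. Of the 9 members, 8 were above the limit for dim genes and were tested, and limma called 0 of them at an adjusted p of 0.05, where 0% of the 12892 genes were called. At an unadjusted p under 0.05 limma found 1 member, MSI2, and 779 genes (6.04%), and unmoderated statistics called 0 genes after adjustment and 686 before it. With SH1 left out limma called 1698 genes and with SH3 left out 54. The groups did not overlap for 5 of the 9 members, with MSI2, LMO2 and RUNX1 higher and GATA2 and SOX4 lower on the hairpin arrays. Among the 12892 genes the groups were apart on 37.2%, with 18.2% higher and 19.0% lower. With SCR left out, and also with SH1 left out, 8 of the 9 members were apart, where 62.7% and 78.5% of the genes were. With LEN-GFP left out 5 were apart and with SH3 left out 7, where 63.8% and 69.4% of the genes were. Over the 9 members the median difference was 0.06, with a range of -0.20 to 0.44, against a median of -0.0029 over all genes tested. With 2 against 2 arrays an exact permutation test of a single gene cannot give a p under 0.333.

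**Figure D1:**
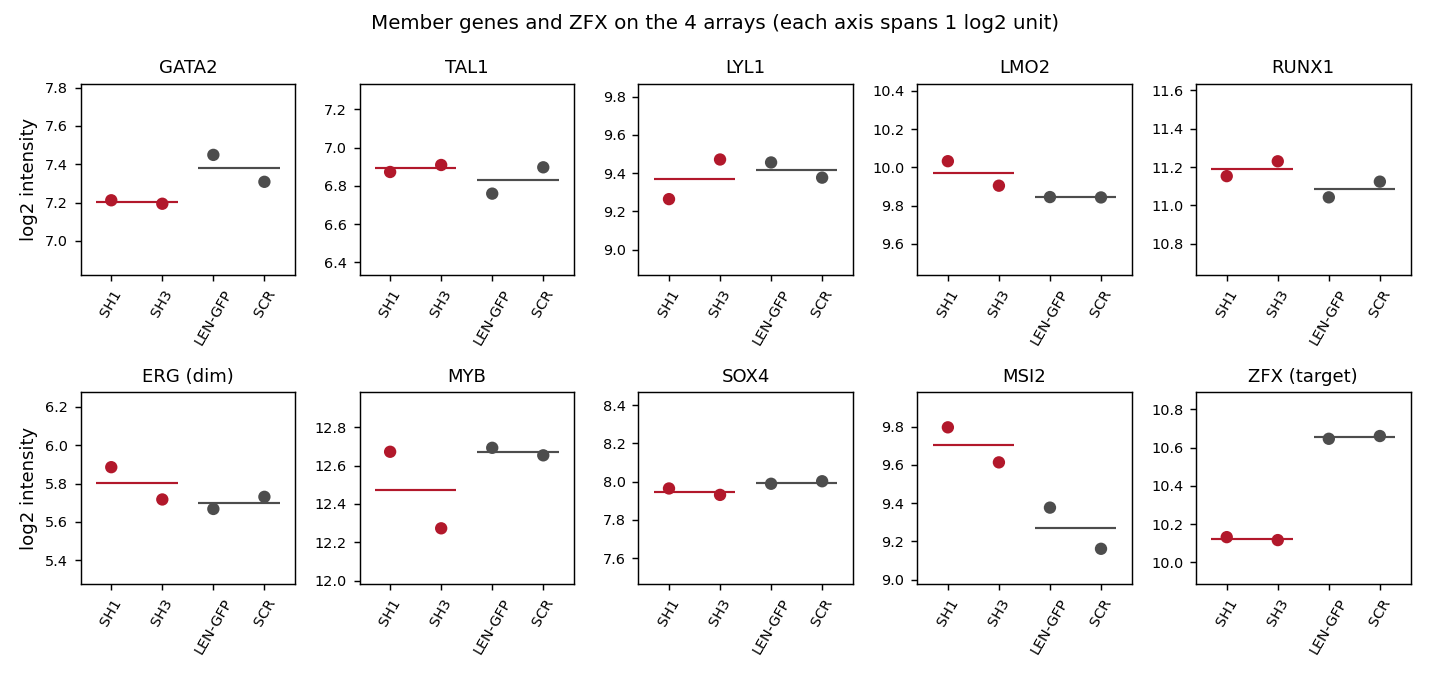
Log2 intensity (vertical axis, each spanning 1 log2 unit) of the 9 members and of ZFX on the 4 arrays (horizontal axis). Red points are the ZFX hairpins SH1 and SH3, grey points the controls LEN-GFP and SCR, and lines are group means. The hairpin points of MSI2 lie at 9.80 and 9.61, above both controls, MYB is low on SH3 alone, and ERG is under the limit for dim genes.

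MSI2, which binds RNA and controls translation, had the largest difference of the members. It was at 9.80 on SH1 and 9.61 on SH3, against 9.38 on LEN-GFP and 9.16 on SCR. Both hairpin arrays were above both controls, and the nearest arrays were 0.24 apart, about as far as the controls were from each other (SCR minus LEN-GFP, -0.22). The difference was 0.44 (SE 0.14), a level of 135% of control, with a 95% interval of 0.07 to 0.80 that makes no allowance for the number of genes, and limma's adjusted p was 0.797. It was 0.53 on SH1 alone and 0.34 on SH3 alone, and limma's adjusted p for these was 0.215 and 0.183. The genes whose 4 values, each centred on its own mean, were nearest to those of MSI2 were SAMD9L (Euclidean distance 0.08), MCEMP1 (0.09) and SASH1 (0.09), over the 4 arrays.

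GATA2, a zinc finger factor needed for stem cell survival, was lower on both hairpin arrays by a small margin. Its values were 7.21 on SH1 and 7.19 on SH3, against 7.45 on LEN-GFP and 7.31 on SCR. The hairpin arrays were nearly equal, and their distance from the nearest control (0.10) was under the 0.14 between the controls. The difference was -0.18 (SE 0.09, 95% interval -0.41 to 0.06, limma's adjusted p 0.797). RNF10, SMARCC2 and UNC50 were nearest to its pattern (distances 0.0076, 0.01 and 0.02).

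LMO2, the bridging LIM protein, was at 10.03 on SH1 and 9.90 on SH3, against 9.84 on LEN-GFP and 9.84 on SCR. The controls coincided, and SH1 was the higher of the hairpins. Its difference of 0.12 (SE 0.12, 95% interval -0.17 to 0.42) had an adjusted p of 0.853 in limma.

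RUNX1, a Runt domain factor that pairs with CBFB, was at 11.15 on SH1 and 11.23 on SH3, against 11.04 on LEN-GFP and 11.12 on SCR. The arrays of the groups were apart by 0.03 only. The difference was 0.11 (SE 0.10, 95% interval -0.15 to 0.37, limma's adjusted p 0.851). Its known partner CBFB was at 10.95 and 10.82 on SH1 and SH3, against 11.01 and 11.03 on the controls, a difference of -0.14 (SE 0.10, limma's adjusted p 0.830).

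TAL1 and LYL1, the helix-loop-helix pair, overlapped between the groups. TAL1 was at 6.87 on SH1 and 6.91 on SH3, against 6.76 on LEN-GFP and 6.90 on SCR, not far above the limit for dim genes, with a difference of 0.06 (SE 0.08). LYL1 was at 9.26 on SH1 and 9.47 on SH3, against 9.46 on LEN-GFP and 9.38 on SCR, so that the hairpins lay on either side of the controls, with a difference of -0.05 (SE 0.13). The 95% intervals were -0.15 to 0.27 for TAL1 and -0.39 to 0.29 for LYL1.

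ERG was under the limit for dim genes and was not tested, at 5.89 on SH1 and 5.72 on SH3, against 5.67 on LEN-GFP and 5.73 on SCR, with a difference of 0.10 and overlapping groups. SOX4, the HMG box factor, was at 7.96 on SH1 and 7.93 on SH3, against 7.99 on LEN-GFP and 8.0 on SCR. The whole range of SOX4 was 0.07, the narrowest of the members, and its difference was -0.05 (SE 0.10, 95% interval -0.30 to 0.20, limma's adjusted p 0.934).

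**Figure D2:**
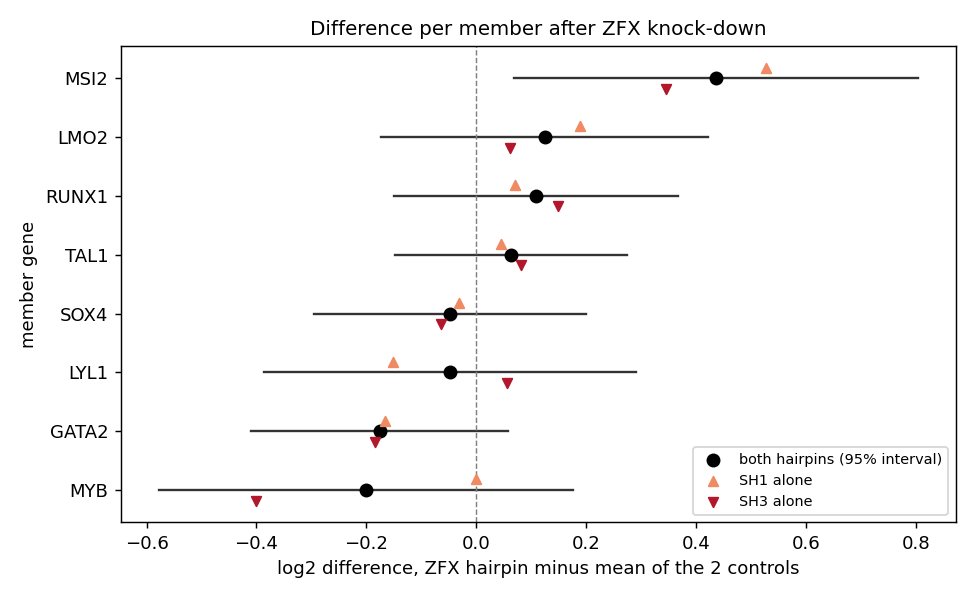
Log2 difference from the mean of the 2 controls (horizontal axis) for the 8 members tested (vertical axis). Black points and lines are both hairpins with the 95% interval from limma, and triangles are SH1 and SH3 alone. The interval of MSI2 (0.07 to 0.80) lies above 0, those of the other 7 span 0, and MYB is the member whose hairpins differ most, at -0.0010 on SH1 and -0.40 on SH3.

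MYB was the member on which the hairpins differed. It was at 12.67 on SH1 and 12.27 on SH3, against 12.69 on LEN-GFP and 12.65 on SCR. SH1 fell between the controls, and SH3 was below all 3 other arrays. Over both hairpins the difference was -0.20 (SE 0.15, 95% interval -0.58 to 0.18, limma's adjusted p 0.821).

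SH3 was set against SH1 in a fit in which the control pair gives the spread and each lone hairpin array is assumed to vary like it. MYB was lower on SH3 by -0.40 (SE 0.09, 95% interval -0.61 to -0.19, limma's adjusted p 0.0347). It was the 1 member of the 8 tested that was called, where 8.49% of all genes were called. The call ended with no filter on dim genes (limma's adjusted p 0.0553), with no intensity trend (0.147) and with each array centred on its median (0.0788). Against both controls, with SH1 left out, limma called the same 1 member on SH3 (adjusted p 0.0145), where 13.2% of all genes were called, and with SH3 left out it called 0 members on SH1, where 0.419% of all genes were called. The other 7 members had 95% intervals of SH3 minus SH1 that spanned 0, the widest of them for MSI2 (-0.57 to 0.20). UQCC2, INAVA and ZNF614 were nearest to MYB's pattern over the 4 arrays (distances 0.02, 0.02 and 0.03).

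Genes described as targets or coactivators of MYB were also lower on SH3 in part. The list was chosen with earlier results of these data known, and all values of SH3 come from a lone array. The counts on this list describe that array and are no separate support for the MYB difference. Of 19 genes on this list, all tested, limma called 6 lower on SH3 than on SH1 and 0 higher, where 4.48% of all genes were called lower and 4.01% higher. The 6 were ELANE, PRTN3 and MPO, enzymes of the azurophil granule, the receptor tyrosine kinase KIT, the repressor GFI1 and MYC. The list's median of SH3 minus SH1 was -0.19. The list shares 4 genes with the granulocytic markers, and without these, 3 of the remaining 15 genes were called lower.

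KIT, the stem cell factor receptor, was at 11.34 on SH1 and 10.41 on SH3, against 11.35 on LEN-GFP and 11.28 on SCR. SH3 minus SH1 was -0.94 (SE 0.12, limma's adjusted p 0.0035), and the other 3 arrays were close together. MPO was at 13.30 on SH1 and 12.31 on SH3, against 13.30 on LEN-GFP and 13.36 on SCR, with SH3 minus SH1 at -0.99. ELANE, the neutrophil elastase, was at 12.57 on SH1 and 11.22 on SH3, against 12.71 on LEN-GFP and 12.72 on SCR, the largest difference of the list at -1.35. The coactivators EP300 and CREBBP were not called, nor were the targets BCL2, CDK6 and CCNB1. Markers of granulocytes share ELANE, PRTN3, MPO and AZU1 with this list, so these genes are no separate observation. Of 9 granulocytic markers tested, 8 were lower in value on SH3 than on SH1, with a median of -0.59. Outside the shared genes, the defensin DEFA4 was lower on SH3 by -1.34, and CAMP was higher by 0.44. The mean log2 level over the 11 markers was 9.54 to 10.02 on the hairpin arrays and 10.06 to 10.09 on the controls. Cathepsin G (CTSG) differed by -0.27 and CAMP by 0.33 over both hairpins. Monocytic markers moved between the hairpins as well. Of 13 tested, limma called CD36 and CD4 higher on SH3 than on SH1 (0.78 and 0.69) and CSF1R lower (-0.75), and the median difference from the controls was -0.00076 on SH1 and 0.26 on SH3. The mean log2 level over the 15 monocytic markers was 10.81 to 10.96 on the hairpin arrays and 10.75 to 10.79 on the controls. The part of either marker list in the MYB result was not tested, and in RNA of a whole culture fewer cells with a transcript and less of it per cell cannot be told apart.

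**Figure D3:**
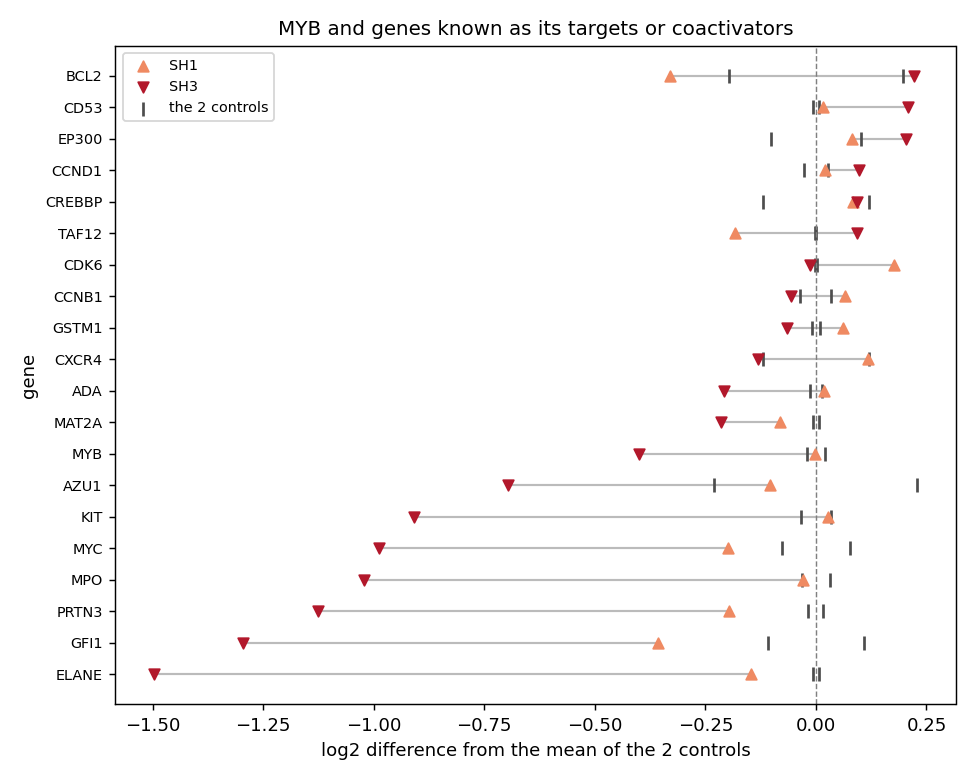
Log2 difference from the mean of the 2 controls (horizontal axis) for MYB and the 19 genes described as its targets or coactivators (vertical axis, sorted by SH3). Triangles pointing up are SH1, triangles pointing down SH3, and grey ticks the 2 controls. MYB, MPO and KIT lie near 0 on SH1 and at -0.40, -1.02 and -0.91 on SH3.

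Partners of the stem cell factors were tested on 19 of 20 listed genes. In the comparison of both hairpins with both controls limma called 0, 8 were higher and 11 lower, and the median was -0.04, against -0.0029 over all genes tested. The cofactors LDB1 (0.05), TCF3 (-0.05) and FLI1 (0.03) overlapped between the groups. The widest gaps were those of GFI1B, a repressor of erythroid and megakaryocyte cells, at 8.95 on SH1 and 8.68 on SH3, against 8.29 on LEN-GFP and 8.46 on SCR, and of its relative GFI1, at 9.44 on SH1 and 8.5 on SH3, against 9.91 on LEN-GFP and 9.69 on SCR. Their differences had opposite signs, 0.44 (SE 0.15) for GFI1B and -0.83 (SE 0.33) for GFI1, and limma's adjusted p was 0.797 for each. SSBP4, a relative of the LDB1-stabilising SSBP2, differed by -0.17 (SE 0.13).

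Other stem and progenitor genes gave 14 tested genes of 24 on the array. None was called by limma over both hairpins, 5 were higher and 9 lower, with a median of -0.01. MN1, a transcriptional coactivator of leukaemia, differed by 0.18, the sialomucin CD164 by 0.16 and MEIS1, a homeobox cofactor, by 0.08. BAALC differed by -0.20 and the receptor FLT3 by -0.15. These were the 3 genes above and 2 below of the 14 tested whose hairpin arrays lay beyond both controls, where 18.2% and 19.0% of all genes tested did. SPINK2, a protease inhibitor of progenitor cells, ran against KIT between the hairpins. It was at 10.70 on SH1 and 11.79 on SH3, against 11.22 on LEN-GFP and 11.22 on SCR, so that the hairpins lay on opposite sides of the controls and SH3 minus SH1 was 1.09 (SE 0.12, limma's adjusted p 0.0015).

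In place of BMI1, which was not analysed, genes listed as subunits of any form of Polycomb repressive complex 1 are given. Not all of them share a complex with BMI1. Of 16 subunits tested limma called 0, with 9 higher, 7 lower and a median of 0.07. PCGF2, the paralog of BMI1, was at 8.43 on SH1 and 8.32 on SH3, against 8.07 on LEN-GFP and 8.06 on SCR, with a difference of 0.31 (SE 0.11, limma's adjusted p 0.797). The chromodomain subunit CBX6 differed by 0.40 (SE 0.15) and RYBP by 0.34 (SE 0.13), while BCOR, PHC2 and YAF2 differed by -0.16, -0.12 and -0.18. All 5 had hairpin arrays beyond both controls, which is how they came to be named, and none was called. Of the 16 subunits, 4 had both hairpins above both controls and 4 below, where 18.2% and 19.0% of all genes tested had. CDKN2A and CDKN2B, the cell cycle inhibitors that the complex represses, were both under the limit for dim genes, with values of 6.01 to 6.50 over the 4 arrays. Among listed targets of Musashi proteins 4 were tested and 0 called over both hairpins, and NUMB, whose translation Musashi proteins repress, differed by 0.08 (SE 0.10). TGFBR1, a receptor of transforming growth factor beta, was at 10.83 on SH1 and 11.58 on SH3, against 10.71 on LEN-GFP and 10.78 on SCR.

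**Figure D4:**
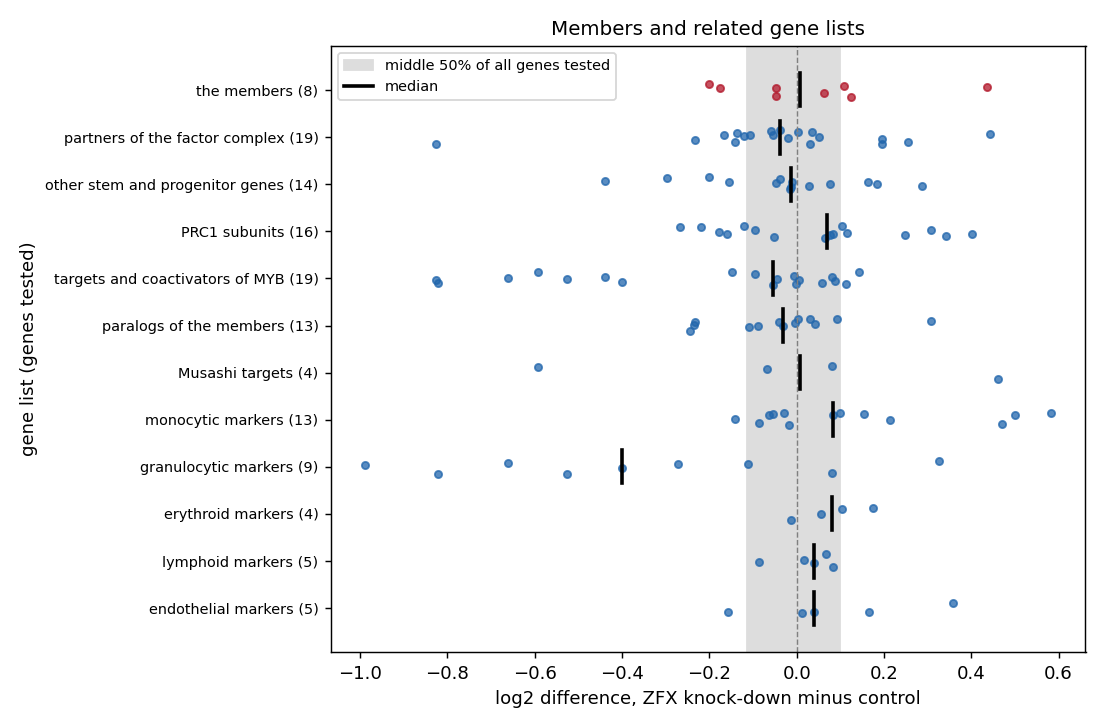
Log2 difference, ZFX knock-down minus control (horizontal axis), of the 8 members tested and of the genes of related lists with at least 4 genes tested (vertical axis, number tested in brackets). Points are genes, black bars list medians, and the grey band holds the middle 50% of all genes tested. The medians of the factor partners (-0.04), the stem and progenitor genes (-0.01) and the Polycomb subunits (0.07) lie in the band. That of the granulocytic markers (-0.40) lies below it. The granulocytic median was -0.10 on SH1 alone and -0.70 on SH3 alone, and this list shares 4 genes with the MYB list.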

How the data were processed

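RNA of 4 arrays was compared, 2 with ZFX hairpins and 2 controls. The authors deposited a linear intensity for each of 33297 probe sets, and Affymetrix Expression Console 1.1 and RMA are named in the submitters' processing notes. No source used here gives the step that made them linear. RMA makes the arrays alike in distribution, so a change of total RNA is not visible. The log2 of each intensity was taken as it stood. Probe sets with 1 gene symbol (19460) were kept, the brightest per gene, and the lowest 30% of genes by mean log2 were left out. limma 3.58.1 in R 4.3.3 (lmFit, eBayes with an intensity trend, two-sided) was used with Benjamini-Hochberg adjustment over 12892 genes and a threshold of 0.05, and was tested on simulated data. All value columns were used. Named genes were the members, ZFX, up to 3 genes per list and direction with the widest gap between the groups, and the 3 genes nearest to each of the 3 members of widest range. Genes outside this rule, among them those called between the hairpins, LDB1, TCF3, SPINK2 and cell type markers, were named after their values were seen. Alternatives were the filter, the trend, an offset of 16, centring, the mean of probe sets and leaving out each array. The members and lists were chosen with earlier results of these data known.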

Additional observations from a re-analysis of the deposited data

Results flagged for a closer look

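MYB differed between the ZFX hairpins, by -0.40 (SH3 minus SH1, log2 scale). Each hairpin was on a lone array, so the test of this difference took its spread from the control pair. MYB was no longer called with no filter on dim genes, with no intensity trend or with each array centred on its median. SH3 also stood apart from the other arrays over all genes tested, and many other genes were called between the hairpins. An effect of this hairpin and a peculiarity of its array cannot be told apart. SH3 was the lower array, and SH1 lay between the controls.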

How the results depend on the processing

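For LMO2, RUNX1 and MSI2 the sign and the lack of a call held under every alternative run, with MSI2 between 0.33 and 0.54. They held for GATA2 and SOX4 under every alternative in which these genes were tested. Neither was tested with the lowest 50% of genes left out. The filters and the trend could not move a member's difference, only its SE and adjusted p. The same was so for the mean of probe sets, since each member had 1 probe set. A sign could move only with the offset, centring or an array left out. Leaving out 1 array at a time moved the count of genes called by limma between 0 and 1698 (1698 without SH1, 54 without SH3, 0 without either control). It moved the number of members whose groups were apart between 5 and 8, where 62.7% to 78.5% of all genes tested were apart. It moved TAL1 between -0.0062 (without LEN-GFP) and 0.13 (without SCR), LYL1 between -0.15 (without SH3) and 0.055 (without SH1), and MYB between -0.40 (without SH1) and -0.0010 (without SH3). Without SH1, MYB (-0.40) and ZFX (-0.54) passed, but SH3 was then a lone array and only the control pair gave the spread. With each array centred on its median, 688 genes differed between the hairpins instead of 1095. The 6 calls on the list of MYB targets stayed at 6 under all 6 alternatives, an alternative count chosen after seeing the data, as were the counts of members apart. The cause of these changes was not tested, and the runs with an array left out also had fewer arrays. No paired analysis was possible because the labels give the constructs no replicate numbers that pair them. The 4 arrays limit the precision of all values, and signal over background cannot be judged from this table.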

Other observations

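Endothelial cells also express TAL1, LMO2 and ERG. Of their markers ESAM differed by 0.36 (SE 0.09), PECAM1 by 0.16, CLDN5 by 0.04 and ENG by -0.16, and of the lymphoid markers CD79B by -0.09, none called by limma over both hairpins.

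Paralogs of the members were tested on 13 of 16 genes. In limma 0 were called over both hairpins, 5 were higher and 8 lower, with a median of -0.03. MYBL2, a relative of MYB that acts in the cell cycle, was at 11.05 on SH1 and 10.64 on SH3, against 11.18 on LEN-GFP and 10.98 on SCR. TAL2, a relative of TAL1, was called lower on SH3 than on SH1 (8.57 on SH1 and 7.75 on SH3, against 8.36 on LEN-GFP and 8.45 on SCR). SOX12 and ETV2 differed by 0.09 and 0.04, with hairpin arrays above both controls, as was so for 18.2% of all genes tested. RUNX2 was at 10.56 on SH1 and 10.54 on SH3, against 10.75 on LEN-GFP and 10.57 on SCR, a difference of -0.11, while RUNX3 was at 9.43 on SH1 and 9.76 on SH3, against 9.60 on LEN-GFP and 9.67 on SCR.

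Among partners of the stem cell factors, SSBP2, which stabilises LDB1, and the homeobox factor HHEX were called higher on SH3 than on SH1 by limma. SSBP2 was at 10.82 on SH1 and 11.47 on SH3, against 11.01 on LEN-GFP and 10.89 on SCR. HHEX was at 8.95 on SH1 and 9.57 on SH3, against 9.01 on LEN-GFP and 9.0 on SCR. Both genes overlapped between the groups over both hairpins, with differences of 0.20 and 0.25.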
